A study of Mus musculus with 7 samples.

Results

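The 487 regions described here were chosen by their summit heights: they carried a 5-methylcytosine (5mC) call among the highest-ranked intervals of all 3 libraries of one culture condition and of no library of the other. Of these, 256 were called in the untreated libraries only and 231 in the libraries treated with KCl only. They came from 58170 regions that held such a ranked interval in at least 1 library, out of 133337 active regions in all. The members were 0.44% (untreated only) and 0.397% (KCl only) of those 58170 regions. These percentages are fixed by the rule that chose the members, and nothing is read from them.

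Hippocampal neurons of C57BL/6J mouse embryos, taken at E18.5, were kept 11 days in vitro, in a medium with glutamic acid and the antimitotic agent AraC. KCl cultures received 55 mM KCl for 4 h, and untreated cultures did not, with 3 libraries in each group. An antibody against 5mC was used to enrich methylated DNA fragments before sequencing (MeDIP-seq), and a pooled input library was not used here. All groups shared strain, age, medium and AraC, and the labels do not tell whether replicates are separate cultures or animals, so their spread may be technical. The labelled neuronal identity could not be checked from marker levels, because 5mC regions give no expression.

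In mammalian DNA, 5mC lies mostly at CG dinucleotides (CpG sites), is laid down by DNA methyltransferases, and is removed by dilution at replication or by oxidation by TET enzymes followed by base excision repair. Bodies of genes and intergenic DNA are broadly methylated, and CpG-rich promoters mostly are not. Raised extracellular KCl depolarises neurons and opens voltage-gated calcium channels, which sets off calcium-dependent gene expression. MeDIP measures the density of methylated fragments over stretches of DNA of about fragment length, and not the state of single sites.

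The value of a region in a library was its summit height, a whole number deposited for each called interval. The number of called intervals ran from 34834 in KCl replicate 3 to 93470 in KCl replicate 1, so each library was reduced to its 34834 highest intervals. This kept 39.9% to 47.8% of the intervals of the untreated replicates, and 37.3%, 57.2% and 100% of those of KCl replicates 1, 2 and 3. The lowest height kept (the cut) was 17, 18 and 16 in the untreated replicates and 19, 14 and 6 in the KCl replicates. A height of 16 was thus ranked in some libraries and not in others. KCl replicate 3 stood apart, since it had no lower-ranked interval left and a median kept height of 14, against 20 to 27 in the other 5 libraries. The depth behind each height is unknown, since no source used here gives read totals.

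Few of the regions ranked in all libraries of one condition lacked a ranked interval in every library of the other. These counts follow from the rank cut, and nothing is read from them about the treatment. Of 22884 regions ranked in all 3 untreated libraries, 17925 (78.3%) were also ranked in all 3 KCl libraries, 3557 (15.5%) in 2 of them, 1146 (5.01%) in 1, and 256 (1.12%) in none. Of 21350 regions ranked in all 3 KCl libraries, the same 17925 (84.0%) were ranked in all 3 untreated libraries, 2380 (11.1%) in 2, 814 (3.81%) in 1, and 231 (1.08%) in none. A region ranked in the whole of one group was missing from single libraries of the other at differing rates. Among the 22884 regions, 6.10%, 8.22% and 14.6% lacked a ranked interval in KCl replicates 1, 2 and 3. Among the 21350 regions, 7.33%, 6.17% and 8.52% lacked one in untreated replicates 1, 2 and 3. The part of these single-library gaps in the 487 calls was not tested.

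**Figure D1:**
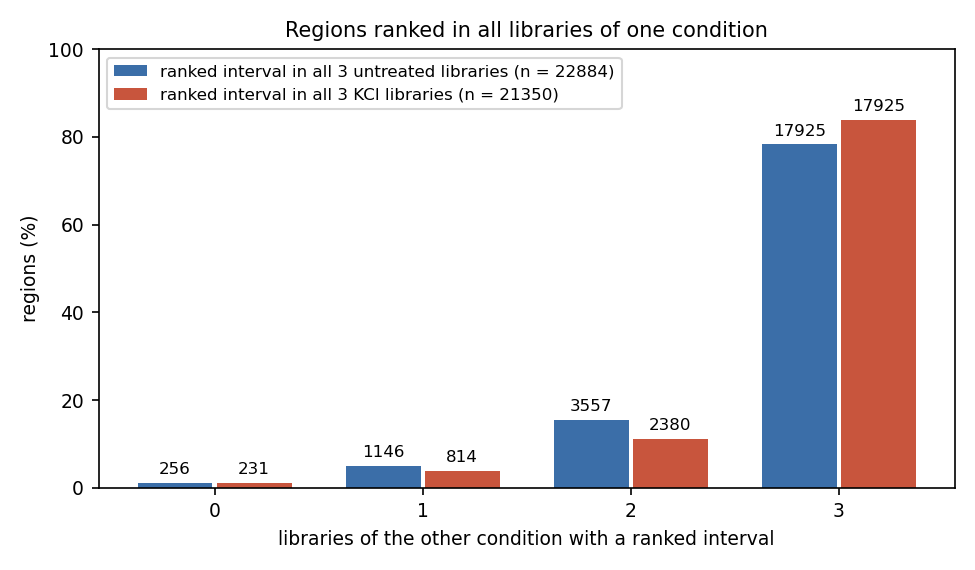
Share of regions (%) ranked in all 3 libraries of one condition, by the number of libraries of the other condition that also held a ranked interval. Blue bars are the 22884 regions ranked in all untreated libraries, red bars the 21350 ranked in all KCl libraries, and numbers over the bars are regions; the 256 and 231 regions at 0 are the members.

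The untreated-only regions stood low among the kept intervals of their own libraries. Their heights ran from 17 to 29 with a median of 19 in untreated replicate 1, from 18 to 33 with a median of 21 in replicate 2, and from 16 to 33 with a median of 18 in replicate 3. These medians lay 2, 3 and 2 above the cut. They were also above the medians of all intervals of these libraries, kept or not, which were 15, 16 and 15. Regions ranked in all 6 libraries had medians of 32, 36 and 29 in the same libraries. Within 3 height units above the cut lay 158 (61.7%), 140 (54.7%) and 164 (64.1%) of the 256 regions in untreated replicates 1, 2 and 3. The rule used these heights, and they are a description.

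In KCl replicates 1 and 2 most untreated-only regions still had an interval, below the cut or tied at it and not kept. KCl replicate 1 held one in 230 of 256 regions (89.8%), with heights from 9 to 19 and a median of 16. KCl replicate 2 held one in 150 regions (58.6%), with heights from 9 to 14 and a median of 13. The height equalled the cut in 9 regions in KCl replicate 1 and in 25 in KCl replicate 2. KCl replicate 3 held no interval in any of the untreated-only regions, which follows from its having no interval outside the ranked set. Thus 144 regions (56.2%) had a lower-ranked interval in 2 KCl libraries, 92 (35.9%) in 1 and 20 (7.81%) in none. The label "untreated only" therefore describes a rank cut, and all but these 20 regions carried a call outside the ranked set in at least 1 KCl library.

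The KCl-only regions likewise had lower-ranked intervals in the other condition. Their heights ran from 19 to 32 with a median of 21 in KCl replicate 1, from 14 to 23 with a median of 16 in replicate 2, and from 9 to 20 with a median of 12 in replicate 3. Lower-ranked intervals were present in 212 of 231 regions (91.8%) in untreated replicate 1, 218 (94.4%) in replicate 2 and 200 (86.6%) in replicate 3, with medians of 14, 15 and 13. Over all 58170 ranked regions, an interval of any rank was present in 89.3%, 90.9% and 85.1% in the untreated replicates and in 92.0%, 79.7% and 58.9% in the KCl replicates. All 3 untreated libraries held a lower-ranked interval in 172 regions (74.5%), 2 held one in 56 (24.2%), 1 in 2 regions (0.866%) and none in 1 region (0.433%). On deposited heights, over the regions with an interval, the median was lower in KCl replicate 3 (12) than in any untreated library (13 to 15). Within their libraries, in contrast, the median ranks were 29552, 29354 and 26129 in the KCl replicates and 50706, 50338 and 50383 in the untreated replicates, where the rank of a height is the number of intervals in the library that are at least as high.

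**Figure D2:**
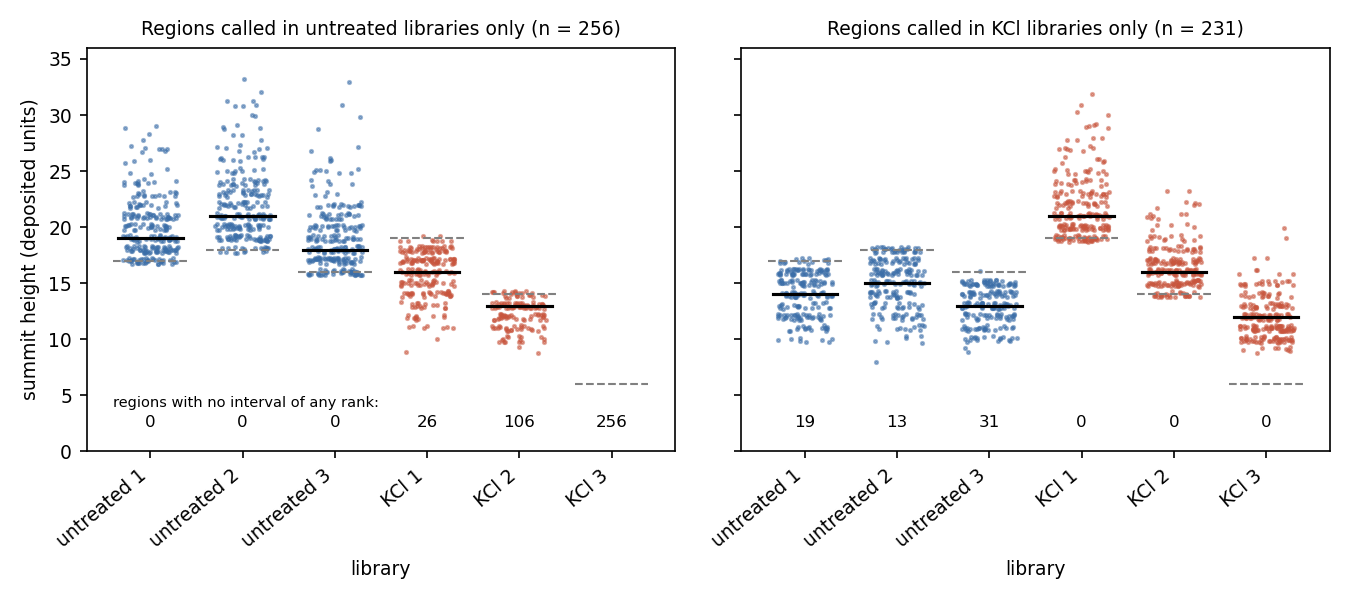
Summit height (deposited units) of each member in each library, for the 256 untreated-only regions (left) and the 231 KCl-only regions (right); points are regions, black lines medians, dashed lines the lowest height kept, and the numbers at the bottom count regions with no interval of any rank. In the calling libraries most points lie close above the cut, except in KCl replicate 3, where the median of 12 stands well above the cut of 6; in the other condition points reach up to the cut, and KCl replicate 3 holds none of the untreated-only regions.

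Whether the groups overlapped depended on whether height or rank was compared. Counting a library with no interval as 0, every untreated height was above every KCl height in 201 of the 256 untreated-only regions (78.5%), where 5.19% of the 58170 regions did so. Every KCl height was above every untreated height in 13 of the 231 KCl-only regions (5.63%), where 0.213% of all regions did so. On ranks the groups did not overlap in 256 (100%) and 229 (99.1%) of the members, against 5.07% and 3.43% of all regions. The rule used the same contrast, so nothing is read from these shares. The scales parted most in KCl replicate 3. KCl replicate 1 was above all untreated heights in 231 of the 231 KCl-only regions, KCl replicate 2 in 127 and KCl replicate 3 in 15. KCl replicate 3 was below the lowest untreated height present in 114.

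In the 172 KCl-only regions with an interval in all 6 libraries, the KCl mean was above the untreated mean by a median of 0.20 on the log2(height + 1) scale, with a range from -0.15 to 0.70. It was higher with KCl in 155 of them and lower in 17. Over all 27310 regions with an interval in all 6 libraries, the same difference had a median of -0.23. The members' median thus lay 0.43 above the general one on the log2 scale. The rule used this same contrast, so nothing is read from this difference or from the counts of 155 and 17. None of the untreated-only regions had an interval in all 6 libraries, so no such value exists for them.

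The highest untreated-only region lay between genes, at chr13:12385418-12385923 (mm10), 9452 bp from Heatr1, whose product acts in ribosome biogenesis. Its heights were 24, 28 and 30 in the untreated replicates (27.3 ± 3.06, mean ± SD, n = 3), 18 in KCl replicate 1, and it had no interval in KCl replicates 2 and 3. Next came a region in the body of Cacna1h, at chr17:25395185-25395618. Cacna1h encodes a pore-forming subunit of low-voltage-activated (T-type) calcium channels. Its region read 27, 25 and 29 untreated (27.0 ± 2.00, SD, n = 3) and 16, no interval and no interval with KCl. In both regions every untreated height was above every KCl height.

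The region in Crhr2 (chr6:55114182-55114483) had untreated heights of 24, 31 and 21 and a KCl height of 19 in replicate 1 only. Crhr2 encodes a receptor for the corticotropin-releasing hormone family of stress peptides. This KCl height of 19 equalled the cut of that library, so the region counted as untreated only because of the order in which tied intervals were taken. A region shared by Arhgap15, which encodes a GTPase-activating protein for Rac, and the predicted gene Gm39804 (chr2:43755896-43756366) read 23, 33 and 23 untreated and had no interval of any rank in the KCl libraries. The region at chr5:105965327-105965803, 49509 bp from Zfp326, likewise read 21, 21 and 33 untreated and had no KCl interval. In both of these 1 untreated library, a different one in each, was at least 10 units above the other two.

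Another 3 of the 10 highest lay in gene bodies. Mcoln3 encodes a cation channel of endosomes and lysosomes, and its region (chr3:146139119-146139787) read 27, 29 and 18 untreated and 17, 14 and no interval with KCl. Its height in KCl replicate 2 equalled the cut of that library, so it too was called by the order of ties. Ssh1 encodes a phosphatase that activates the actin-severing protein cofilin, and its region (chr5:113966083-113966529) read 29, 26 and 18 untreated and 12 in KCl replicate 1 alone. Ggcx encodes the vitamin K-dependent gamma-carboxylase, and its region (chr6:72425731-72426246) read 24, 31 and 18 untreated and 18 in KCl replicate 1 alone. In the Ggcx region, untreated replicate 3 and KCl replicate 1 had equal heights, and only the cuts of 16 and 19 put them on different sides. The other two of the 10 were intergenic, at chr3:101169099-101169602 (25, 29 and 27 untreated; 18, 10 and no interval with KCl) and at chr3:97321859-97322392, 23457 bp from Bcl9 (26, 26 and 21 untreated; 18, 12 and no interval with KCl).

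Regions ranked in all 6 libraries had median heights of 36, 27 and 19 in KCl replicates 1, 2 and 3. On deposited heights, each of the 10 highest KCl-only regions likewise read highest in KCl replicate 1. By rank within the library, replicate 1 was not the highest in all 10. The first, in a gene desert 1033288 bp from Cdh7 (chr1:108948503-108948949), read 32, 22 and 10 in the KCl replicates (21.3 ± 11.0, SD, n = 3) and 14, 13 and 13 in the untreated ones. The second (chr7:49885239-49885632, 21352 bp from the glycine transporter gene Slc6a5) read 29, 21 and 12 with KCl and 12, 15 and 15 untreated. The third lay in Kif26a, an atypical kinesin gene (chr12:112154755-112155095), and read 31, 19 and 11 with KCl and 16, 12 and 12 untreated. In all 3 of these regions KCl replicate 3 was at or below the lowest untreated height.

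Among the 10, 2 regions had every KCl height above every untreated height. The region at chr9:49960432-49960958 lay 161039 bp from Ncam1, the neural cell adhesion molecule gene, and read 25, 20 and 16 with KCl (20.3 ± 4.51, SD, n = 3) and 14, 15 and 12 untreated. The region at chrX:65748252-65748509 read 28, 19 and 14 with KCl (20.3 ± 7.09, SD, n = 3) and 12, 11 and 12 untreated. The remaining gene bodies were Lca5, a gene of the photoreceptor cilium (chr9:83409436-83409791; 29, 16 and 15 with KCl; 17, no interval and 13 untreated), and Arhgef37, a guanine nucleotide exchange factor gene (chr18:61524180-61524717; 29, 15 and 15 with KCl; 14, 14 and 15 untreated). In both, KCl replicates 2 and 3 fell within or next to the untreated heights. The Lca5 region and the one near Arhgef19 had a height of 17 in untreated replicate 1, equal to its cut, and each was a member under only 1 of the 3 other treatments of ties. The last 3, at chr4:141273705-141274445 near Arhgef19, chr7:18578562-18579010 in the pseudogene Gm19091 and chr8:110238172-110238543 near Cmtr2, read 27 to 29 in KCl replicate 1, 15 to 18 in replicate 2, 14 to 15 in replicate 3 and at most 17 in any untreated library.

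**Figure D3:**
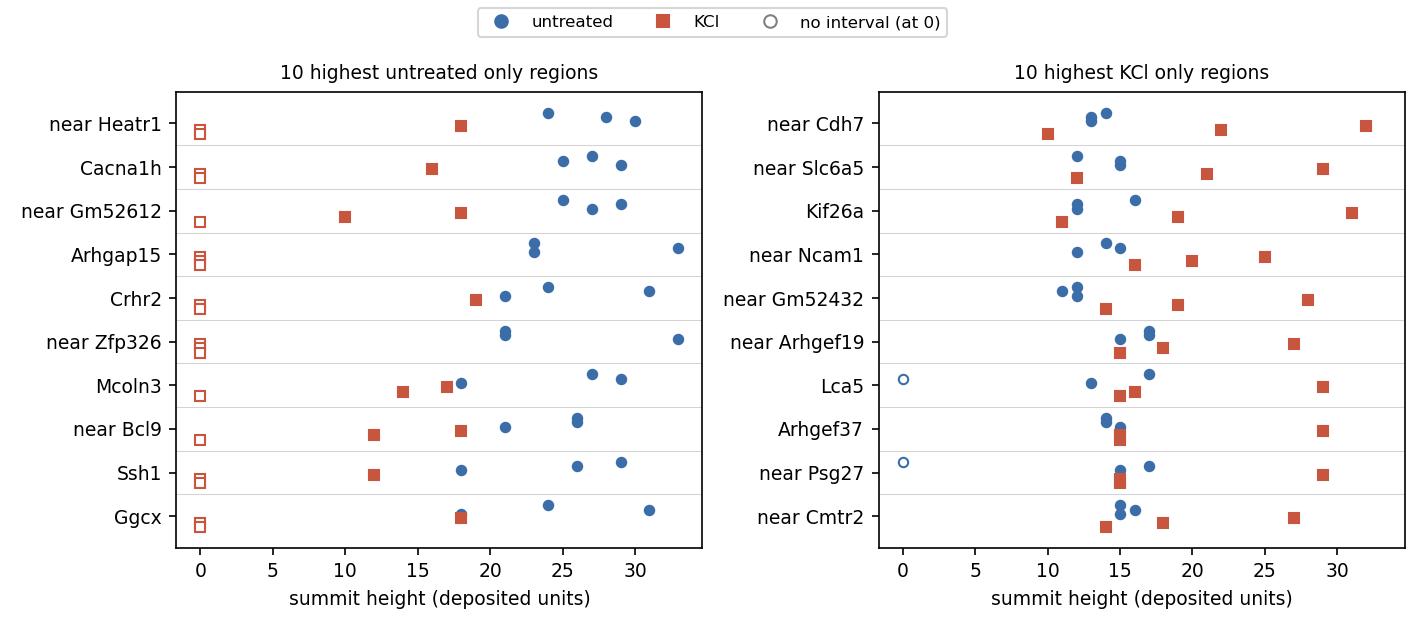
Summit heights (deposited units) in the 6 libraries for the 10 untreated-only (left) and 10 KCl-only (right) regions with the highest mean over their calling libraries, named by the gene that holds them or the nearest protein-coding gene; open symbols at 0 mark libraries with no interval. Untreated points lie mostly to the right of KCl points on the left panel, while on the right panel KCl replicate 1 is far out and the lowest KCl point often lies among the untreated points.

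At the lower edge of the rule, members had heights at or within a few units of the cuts. The 3 lowest untreated-only regions read 17, 18 and 16 in Sectm1a (chr11:121069728-121070202; KCl 15, 11 and no interval), 17, 19 and 16 at chr3:118218349-118218735 (KCl 15 in replicate 1 alone), and 17, 19 and 16 at chr2:72281976-72282462 (KCl 11 in replicate 2 alone). The 3 lowest KCl-only regions read 19, 14 and 10 at chr16:81747481-81747938 (untreated 16, 18 and 11), 19, 15 and 10 in Zfp157 (chr5:138446404-138446709; untreated 14, 12 and 13), and 19, 15 and 10 in Gm31648 (chr4:137083630-137084028; untreated 16, 18 and 14). In these 3 the KCl and untreated heights overlapped. None of the lowest regions of either direction was a member under all 3 other treatments of ties. The chr16 region was a member under none of them, and the Sectm1a and Gm31648 regions under only 1.

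The highest regions just outside the rule had higher means than any member of the same direction. A region in Tmem267 (chr13:119492077-119492545) read 45, 42 and 40 untreated and 36 in KCl replicate 1, with no interval in the other KCl libraries. A region 421 bp from Hjurp (chr1:88278065-88278670) read 26, 38 and 34 untreated and 36 in KCl replicate 1 alone, and one in Sp140 (chr1:85623916-85624323) read 29, 37 and 29 untreated and 27 in KCl replicate 1 alone. On the KCl side, a region at chrY:90767754-90768040 read 28, 27 and 25 with KCl and 24 in untreated replicate 2 alone. Regions in Denn2b (chr7:109655460-109655975) and Stard13 (chr5:151039327-151039837) read 34, 31 and 12, and 32, 21 and 21 with KCl, against 17, 20 and 11, and 10, 27 and 14 untreated. Each of these 6 regions missed the rule through 1 library, KCl replicate 1 or untreated replicate 2.

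A complete absence in the other condition was reached by 21 regions. The 1 KCl-only region with no untreated interval of any rank lay in Sgcd, which encodes delta-sarcoglycan of the dystrophin-associated complex (chr11:47016785-47017271), and read 20, 17 and 14 with KCl. The 20 untreated-only regions with no KCl interval of any rank included the Arhgap15 region above and regions in Pwwp3a (chr10:80240741-80241370; 18, 26 and 27), in Srebf1, the gene of a transcription factor for lipid synthesis (chr11:60205183-60205741; 19, 21 and 16), and in Ddr1, a collagen receptor tyrosine kinase gene (chr17:35683300-35683767; 17, 19 and 19). These genes, Sgcd included, were singled out after their values were seen. The Srebf1 and Ddr1 regions each had an untreated height equal to a cut, and each was a member under 2 of the 3 other treatments of ties. Of the 22884 regions ranked in all untreated libraries, 0.293%, 2.32% and 14.6% had no interval of any rank in KCl replicates 1, 2 and 3, against 0.412%, 0.173% and 0.848% of the 21350 in the untreated replicates. The part of these rates in the counts of 20 and 1 was not tested.

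The positions of the members were set against RefSeq genes, a feature the rule did not use. The gene table holds gene spans without exons, so a region inside a gene could not be assigned to exon, intron or UTR. A gene body held 162 of 256 untreated-only regions (63.3%, 95% exact binomial interval 57.1 to 69.2) and 138 of 231 KCl-only regions (59.7%, 53.1 to 66.1). The share was 64.2% over the 58170 ranked regions and 63.9% over the 7897 regions ranked in all 3 libraries of one condition and 1 or 2 of the other. It was 67.5% over the regions ranked in all 6 libraries. Both members' shares lay within a few percent of the first 2 of these, and their intervals held both. The intervals cover counting over regions only, and regions of the same 6 libraries are not replicates.

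Near gene ends the shares of the 2 directions had overlapping intervals. Within 1 kb of either end of a gene lay 32 untreated-only regions (12.5%, 8.71 to 17.2) and 15 KCl-only regions (6.49%, 3.68 to 10.5). The share was 11.8% over ranked regions and 14.0% over regions ranked in all 6 libraries. The untreated-only interval held both of these shares and the KCl-only interval held neither. With protein-coding genes alone the counts were 9 (3.52%, 1.62 to 6.57) and 10 (4.33%, 2.10 to 7.82), and both intervals held the 5.35% of ranked regions. With ties taken from the other end of the genome the shares over all genes were 12.5% and 7.93%, and with ties left out 12.8% and 8.82%. With ties all kept they were 12.7% and 6.28%. No interval was computed under these treatments of ties, so the comparison of the KCl-only interval holds for the deposited order of ties only. No test of the difference was made. Regions in long noncoding RNA genes alone made up 26 (10.2%) of the untreated-only and 14 (6.06%) of the KCl-only regions, against 7.55% of ranked regions. Transcript starts on chromosome 18 were not analysed here, and the set of starts used on the other chromosomes was incomplete. Picked as an example, a KCl-only region in Cpsf1 (chr15:76597288-76597812) lay 1476 bp from an end of Adck5 but 389811 bp from the nearest start used. On the other chromosomes, a start of this set lay within 1 kb of 9 of 251 untreated-only (3.59%) and 4 of 222 KCl-only regions (1.80%), against 3.86% of ranked regions.

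**Figure D4:**
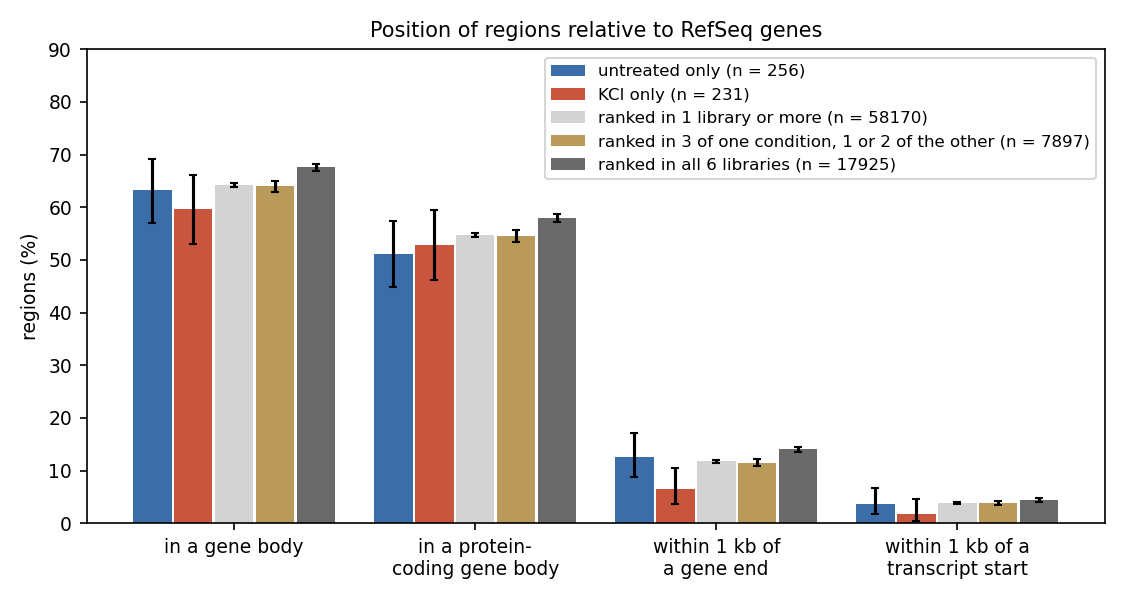
Share of regions (%) in gene bodies, in protein-coding gene bodies, within 1 kb of a gene end and within 1 kb of a transcript start. The last leaves out chromosome 18 and uses an incomplete set of starts elsewhere. Bars are shares in the 2 sets of members and 3 comparison sets, and error bars are 95% exact binomial intervals over regions. The gene end shares of the members are 12.5% and 6.49%, with overlapping error bars. With ties in the deposited order, the KCl-only error bar ends below the 11.8% of ranked regions.

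Among the members near gene ends or transcript starts were genes of known neuronal or growth roles, named here after their values were seen. Ntf3 encodes the neurotrophin NT-3, and a KCl-only region in its body 764 bp from its end (chr6:126165572-126166008) read 20, 16 and 15 with KCl and 15, 17 and no interval untreated. Slc6a9 encodes a glycine transporter, and a KCl-only region 273 bp from a transcript start (chr4:117848742-117849077) read 20, 17 and 12 with KCl and 14, 16 and no interval untreated. In both, heights of the groups overlapped. Slc2a1 encodes the glucose transporter GLUT1, and an untreated-only region 846 bp from its end (chr4:119136096-119136484) read 18, 24 and 17 untreated and 17, 14 and no interval with KCl. The height of 14 equalled the cut of KCl replicate 2, and the Slc2a1 region was a member under only 1 of the 3 other treatments of ties. Mcm2 encodes a subunit of the replicative helicase, and its untreated-only region (chr6:88883924-88884362) read 19, 22 and 25 untreated and 14, 12 and no interval with KCl. Only the Mcm2 region had all untreated heights above all KCl heights.

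Promoter windows, here the 250 bases before to 50 bases after a transcript start, came from the same incomplete set of starts. They were touched by 2 of the same 251 untreated-only regions (0.797%) and by none of the 222 KCl-only regions. The share was 1.46% of ranked regions and 1.93% of regions ranked in all 6 libraries. These 2 promoters are shown because no other promoter examined touched a member. Each sequence is the upstream stretch inside the region, from RefSeq GRCm38.p6, 5′ to 3′ on the strand of the gene, ending at the base before the transcript start, with CpG sites in capitals. The first, of the long noncoding RNA gene Gm30932, is chr1:190594186-190594287 on the plus strand. The second, of the olfactory receptor gene Olfr1349, is chr7:6515428-6515570 on the minus strand.
Gm30932: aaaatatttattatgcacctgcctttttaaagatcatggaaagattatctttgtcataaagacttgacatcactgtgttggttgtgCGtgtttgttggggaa
Olfr1349: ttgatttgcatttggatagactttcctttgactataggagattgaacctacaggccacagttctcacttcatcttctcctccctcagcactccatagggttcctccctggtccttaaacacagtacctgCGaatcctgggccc

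Both stretches held 1 CpG site. In the 250 bases upstream of the start there were 2 CpG sites for Gm30932 and 3 for Olfr1349, and 81.2% and 71.0% of 32851 RefSeq promoters had as many or more. Windows touched by regions ranked in all 6 libraries had a median of 9. Both were thus CpG-poor promoters. The Gm30932 region read 17, 20 and 16 untreated and 14 in KCl replicate 1 alone. Its heights of 17 and 16 equalled the cuts of untreated replicates 1 and 3. It was a member under only 1 of the 3 other treatments of ties. The Olfr1349 region read 18, 31 and 19 untreated and 14, 13 and no interval with KCl.

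Members were scattered, and near ranked regions in general in length. The median length of members was 432 bp (untreated only) and 415 bp (KCl only), against 446 bp for ranked regions (interquartile range 375 to 526). It was 466 bp for regions ranked in all 3 libraries of one condition and 1 or 2 of the other. Regions ranked in all 6 libraries had a median of 518 bp. In the calling libraries the summits of a member lay close together, with a median range of 32 bp in both directions, as in the regions ranked in all 6. Members per 1000 ranked regions ran from 6.35 on chromosome 14 to 12.98 on chromosome 3 among the autosomes. Chromosome 17 held 5 untreated-only and 20 KCl-only regions and chromosome 10 held 18 and 6, while chromosome X held 1 and 4 and chromosome Y none. Ties at the cut were taken in chromosome order. With ties taken from the other end, chromosome 17 held 7 and 18, and chromosome 10 held 15 and 10. With ties left out, they held 7 and 17, and 13 and 11.

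The bodies of 250 protein-coding genes held a member, out of 10497 that held a ranked region. Only 4 genes held 2 members, and in 3 of these the directions were opposite. In each of the 4 genes, at least 1 of the members was lost under some of the 3 other treatments of ties. In Cdc14a, a dual-specificity phosphatase gene, a KCl-only region (chr3:116335533-116335934; 22, 15 and 10 with KCl; no interval, 18 and 10 untreated) lay 782 bp from an untreated-only region (chr3:116336717-116337522; 20, 19 and 18 untreated; 11, 13 and no interval with KCl). In Drosha, the nuclease that starts microRNA maturation, a KCl-only region (chr15:12919906-12920319; 21, 14 and 11 with KCl; 16, 17 and no interval untreated) was joined by an untreated-only one 60 bp from the gene's end (chr15:12934803-12935231; 19, 21 and 18 untreated; 12, 13 and no interval with KCl). In both genes the untreated-only region had separate groups and the KCl-only region overlapping ones.

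Mast4, a kinase gene of 603 kb with 28 ranked regions, held an untreated-only region (chr13:102944972-102945486; 18, 18 and 24 untreated; 17, 12 and no interval with KCl) and a KCl-only region (chr13:103103250-103103696; 22, 16 and 12 with KCl; no interval, 12 and 14 untreated). Plekha7, an adherens junction gene, was the single gene with 2 members of the same direction, both untreated only. They read 20, 19 and 16 (chr7:116133205-116133623) and 21, 25 and 19 (chr7:116267453-116268048) untreated, with KCl replicate 1 at 18 and 19 and one further KCl height of 11 in the first. No other gene body held more than 1 member.

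To describe the surroundings of the members, regions with an interval in all 6 libraries within 10 kb of a member were compared by their log2(height + 1) difference, KCl minus untreated, after subtracting the median over all such regions. Near untreated-only members 101 regions had a median relative difference of -0.03 (interquartile range -0.15 to 0.11), with 43 above and 58 below the general median. Near KCl-only members 106 regions had a median of 0.03 (-0.10 to 0.19), with 57 above and 49 below. Both medians were small beside the interquartile range of all 27138 other regions, -0.13 to 0.13. Within 50 kb they were -0.02 over 487 regions and -0.01 over 438. The sign near untreated-only members turned without untreated replicate 2 (0.01), and the value near KCl-only members was 0.01 without KCl replicate 2.

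Members were also counted at genes of lists for the tissue and treatment. Of the 475 genes in 20 lists, 474 were matched and 376 held 2118 ranked regions, of which 13 (0.614%) were members, against 0.837% of all ranked regions. There were 8 untreated-only and 5 KCl-only members among them. At these shares a list with few ranked regions can hold none, and nothing is read from a count of 0. No member lay at the listed immediate early genes (14 ranked regions in 11 of 24 genes) or late activity genes (20 ranked regions). None lay at the listed DNA methylation and demethylation genes (37), glutamate receptors (193), GABA receptors (37) or imprinted genes (118). A list need not hold every gene of its class, so the counts here and below cover the listed genes only. The Gadd45 family, stress-induced genes linked to DNA demethylation, had no ranked region at all, so the rule could not have called them.

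The TGF-beta signalling list had 1 member in each direction among 102 ranked regions (1.96% in all). Bmpr1b is a type I receptor for bone morphogenetic proteins, and its untreated-only region (chr3:141839540-141839844) read 21, 19 and 20 untreated and 15 in KCl replicate 1 alone. Smad3 carries the signal of TGF-beta and activin receptors to the nucleus, and its KCl-only region (chr9:63722843-63723612) read 20, 15 and 11 with KCl and 14, 12 and no interval untreated. The Bmpr1b groups were apart, and the Smad3 groups overlapped through KCl replicate 3.

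The list of calcium channels and calcium signalling had 3 members among 285 ranked regions (1.05%). Besides Cacna1h, the untreated-only region at one end of Crtc1, a calcium-dependent coactivator of CREB (chr8:70382240-70382694), read 23, 19 and 20 untreated and 15, 13 and no interval with KCl. Cacnb3 encodes an auxiliary subunit of voltage-gated calcium channels, and its KCl-only region (chr15:98642170-98642676) read 23, 14 and 11 with KCl and 12, 18 and 13 untreated. The Crtc1 groups were apart, and the Cacnb3 groups overlapped. The Cacnb3 region was not a member under any other treatment of ties. Among 138 ranked regions of potassium channel genes the 1 member was untreated only, in Kcnc1, a fast-spiking channel gene (chr7:46407490-46407941; 19, 24 and 17 untreated; 16, 13 and no interval with KCl), and its groups did not overlap.

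The lists of synaptic adhesion and scaffold genes, cadherins and axon guidance genes had 4 members. These were 0.535%, 0.347% and 0.356% of the ranked regions of the lists, against 0.837% of all ranked regions. Tenm2, a teneurin gene, held an untreated-only region (chr11:36048711-36049339; 17, 18 and 17 untreated; 15 in KCl replicate 1 alone), and Magi2, a postsynaptic scaffold gene, a KCl-only region (chr5:20322527-20323045; 20, 18 and 11 with KCl; 11, 12 and 13 untreated), among 374 ranked regions of synaptic genes. Cdh13, which encodes a cadherin anchored to the membrane by a lipid, held a KCl-only region (chr8:118615524-118615991; 21, 18 and 14 with KCl; 12, 16 and 13 untreated) among 288 of cadherins. Sema3e, a secreted guidance cue gene, held an untreated-only region (chr5:14189915-14190464; 21, 23 and 16 untreated; 16 in KCl replicate 1 alone) among 281. Of these 4, only the Tenm2 heights did not overlap between groups.

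The cell type marker lists had 1 member among 129 ranked regions (0.775%), near the 0.837% of all ranked regions. Among 57 ranked regions of neuron markers the 1 member was in Rbfox3, which encodes the nuclear neuronal antigen NeuN (chr11:118777854-118778258; 19, 21 and 16 untreated; 18 in KCl replicate 1 alone). Astrocyte, oligodendrocyte lineage, microglia and endothelial or mesenchymal markers had 17, 23, 6 and 26 ranked regions and no member. Of the germline genes, normally methylated in somatic cells, 1 of 65 ranked regions was a member, in the piRNA pathway gene Tdrd9 (chr12:112042829-112043144; 21, 14 and 15 with KCl; 15, 11 and 10 untreated). Its groups overlapped. The Crhr2 region was the 1 member among 48 ranked regions of stress axis genes.

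The membership of single regions moved with how ties at the cut were settled. Heights are whole numbers, and 3188 to 4339 intervals shared the cut height in each of the first 5 libraries, against 5 in KCl replicate 3. A tie decided the call for 111 untreated-only (43.4%) and 99 KCl-only (42.9%) regions. With ties taken from the other end of the genome, 189 of the 256 and 174 of the 231 were members again. Under all 3 other treatments of ties, 145 untreated-only regions (56.6%) and 132 KCl-only regions (57.1%) remained. Of the list genes, the regions in Cacna1h, Bmpr1b, Crtc1, Kcnc1, Smad3, Magi2 and Cdh13 were among these, and those in Crhr2, Tenm2, Sema3e, Rbfox3, Cacnb3 and Tdrd9 were not.

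The membership moved more with the depth of the ranking. With 25000 intervals a library there were 163 untreated-only and 161 KCl-only regions, of which 30 and 13 were members at 34834. With 15000 there were 103 and 96, of which none was. Without a cut there were 1349 and 49, of which 20 and 1 were. At equal depths in all libraries the 2 directions had similar counts, and most regions differed from one depth to the next. Of the regions that remained under all treatments of ties, 25 untreated-only and 12 KCl-only regions were also members at 25000, Cacna1h among the former.

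**Figure D5:**
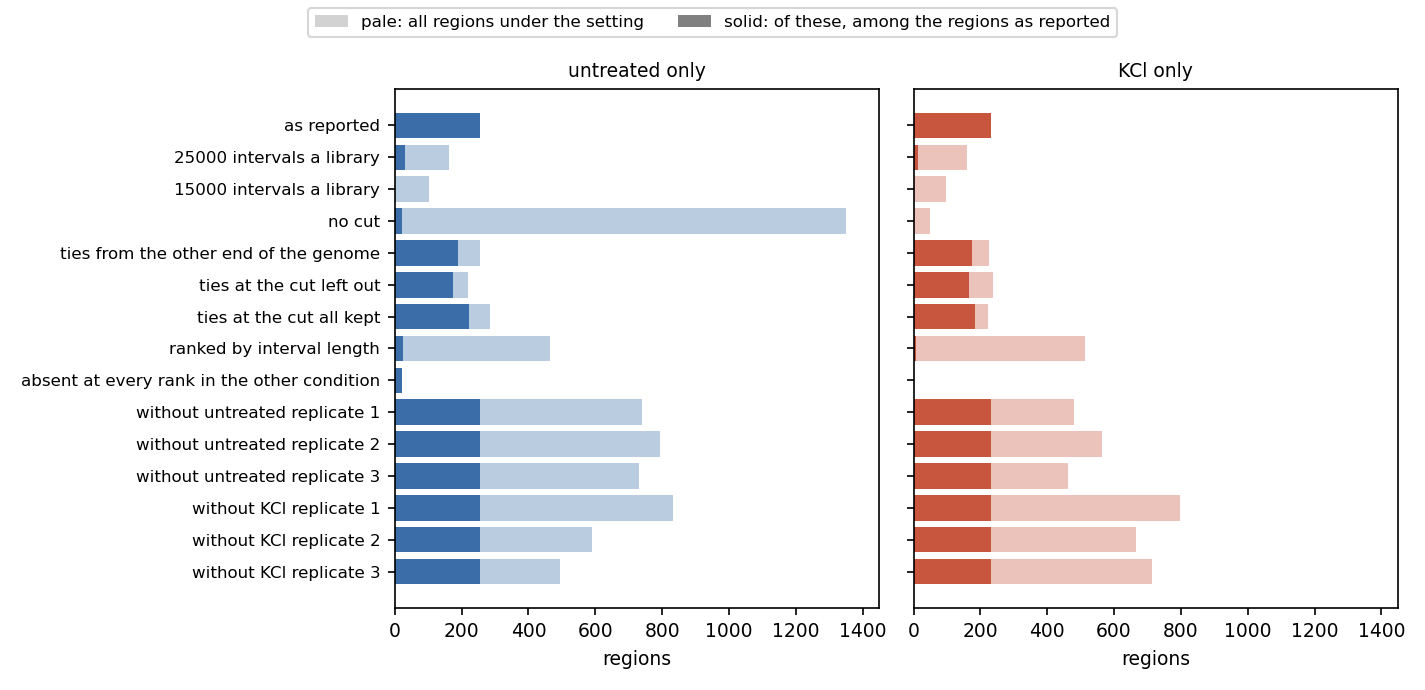
Number of regions called in the untreated libraries only (left) and in the KCl libraries only (right) under each setting; pale bars count all such regions and solid bars those among the 256 and 231 as reported. The solid part shrinks to 0 at 15000 intervals a library, and without a cut the pale bars are 1349 and 49.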

How the data were processed

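Summit heights deposited by the authors are whole numbers in a track with 1 value per called interval, per the file headers, and their scaling between libraries is not stated. The submitters' processing notes list BWA, SICER and mm10 with no version, and per the labels' protocols a company did the library work and the analysis. No source used here gives further settings. Of 13 tracks, the interval and summit tracks of 6 libraries and the active regions were used.

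In each library the 34834 highest intervals were kept, with ties taken in the deposited order. A region took its highest summit per library. Gene spans and transcript starts came from RefSeq GRCm38.p6 (49943 genes), the same build as mm10. Relative differences used log2(height + 1). No statistical test was run, because the rule used the contrast. Python 3.11.15 with pandas 2.3.3 was used, and the counting was tested on simulated heights.

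Members and gene lists were chosen with earlier results of these data known. Named regions were the 10 highest and 3 lowest of each direction, the 3 highest just outside, members at list genes, and genes with 2 members; others are marked in the text. Alternatives changed the cut, ties, ranking value, windows, pseudocount and libraries.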

Additional observations from a re-analysis of the deposited data

How the results depend on the processing

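The counts of 256 untreated-only and 231 KCl-only regions rest on the rank cut and on every library. They were 163 and 161 with 25000 intervals a library, 103 and 96 with 15000, 1349 and 49 with no cut, 463 and 512 when intervals were ranked by length, 63 and 40 in regions of at least 500 bp, and 20 and 1 when regions had to lack an interval of any rank in the other condition. Leaving out 1 library at a time raised them to 493 to 832 and 463 to 797, and all members remained, by construction of the rule. Without KCl replicate 3, and with the cut at the smallest remaining library (60949 intervals), they were 999 and 1352, of which 28 and 4 were among the 256 and 231. The gene body share of 61.6% was 73.4% at 15000 intervals and 52.0% for protein-coding genes, and 61.9% to 64.6% with 1 library left out. The share within 1 kb of a gene end, 9.65%, was 14.1% at 15000, 3.90% for protein-coding genes, 6.78% within 500 bp, 32.4% within 5 kb, and 10.0% to 11.1% with 1 library left out. The relative log2 difference near untreated-only members ran from -0.0631 (without untreated replicate 3) to 0.00663 (without untreated replicate 2, where its sign turned). Near KCl-only members it ran from 0.0138 (without KCl replicate 2) to 0.0473, and was -0.00816 within 50 kb. Paired by replicate number (replicate block), the values were -0.0442 and 0.0570. What the numbers pair is not stated in the labels, no test was run, and the block therefore gives no test. The cause of each of these moves was not tested.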
